A study of Mus musculus with 8 samples.

Results

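The genes described here build, load and display MHC class I molecules, which show peptides from the inside of a cell to CD8 T lymphocytes. They are 10 genes, chosen by name: the heavy chains *H2-K1*, *H2-D1* and *H2-T23*, the light chain *B2m*, the peptide transporter subunits *Tap1* and *Tap2*, the loading chaperone *Tapbp*, the immunoproteasome subunits *Psmb8* and *Psmb9*, and the coactivator *Nlrc5*. All 10 were found among the 46078 gene identifiers of the count tables, and all 10 passed the filter on low counts. The rule that named them used no measured value, but it was written with earlier results of these data known.

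RNA was sequenced from the infarcts of 8 male wild-type C57BL/6J mice, an inbred laboratory strain, that were 18 months old. Every animal had undergone DH stroke, a model that joins closure of the distal middle cerebral artery with a spell of low oxygen, and every infarct was collected 7 weeks later. From 1 week after stroke, 4 animals received sterile phosphate-buffered saline (vehicle) and 4 received 4 g/kg 2-hydroxypropyl-β-cyclodextrin (HPβCD), a ring-shaped sugar that binds cholesterol, by subcutaneous injection 3 times per week for 6 weeks. Infarcts were dissected by hand on sight, which did not fix how much adjoining brain each piece held, and no uninjured tissue is part of this comparison.

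A class I molecule consists of a heavy chain, the shared light chain β2-microglobulin and a short peptide. The proteasome cuts the peptides, the TAP transporter moves them into the endoplasmic reticulum, and tapasin holds the empty molecule at the transporter until a peptide fits. Interferons are the best-known inducers of the pathway, through factors that bind upstream of its genes, and NLRC5 acts with such factors as a coactivator. In the brain, resting neurons show little class I, whereas microglia, macrophages and endothelium show more.

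On the mouse genome build GRCm38, 8 of these genes lie on chromosome 17, in and beside the major histocompatibility complex. *B2m* (chr2:122147686-122153083) and *Nlrc5* (chr8:94434356-94527272) lie elsewhere. RefSeq promoter windows (GRCm38.p6, from 250 bases before to 50 bases after the start) were matched for 8 of the 10 genes, and no window was matched for *Tap2* and *Nlrc5*. The sequences below show what some of these promoters share, 5′ to 3′ on the strand of the named gene. The first pair carries the NF-κB letters GGGNNTTCC in capitals, and in *H2-K1* the cyclic-AMP response letters TGACG and the CCAAT box (read here as ATTGG) are in capitals as well.
*H2-K1*, chr17:34000348-34000487, minus strand: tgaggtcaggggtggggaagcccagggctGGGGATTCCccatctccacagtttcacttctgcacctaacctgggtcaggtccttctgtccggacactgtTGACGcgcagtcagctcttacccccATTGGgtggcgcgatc
*H2-D1*, chr17:35262908-35262937, plus strand: gggaagcccagggctGGGGATTCCccatct

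Lined up at those NF-κB letters without gaps, the 140 bases upstream of *H2-K1* and the same stretch of *H2-D1* were identical at 127 positions (90.7%). The pattern GGGNNTTCC was present on either strand in the windows of 2 of the 8 genes, these same heavy chains, and in 5.82% of all 32851 windows. Only these exact letters were searched for, so a gene without a match, such as *B2m*, may still carry an NF-κB site. The next pair carries core letters of an interferon-stimulated response element, GAAANNGAA or its reverse complement TTCNNTTTC, in capitals. In *B2m* the TGACG and ATTGG letters are in capitals too.
*B2m*, chr2:122147537-122147685, plus strand: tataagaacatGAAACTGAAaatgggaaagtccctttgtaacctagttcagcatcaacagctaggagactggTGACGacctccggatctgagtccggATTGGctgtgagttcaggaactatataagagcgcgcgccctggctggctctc
*H2-T23*, chr17:36032806-36032835, minus strand: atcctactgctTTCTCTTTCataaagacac

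These exact interferon letters occurred in 2 of the 8 genes and in 8.56% of all windows. Variants of the letters were not searched for, so a gene without a match, such as *H2-K1*, may still carry such an element. *Tap1* and *Psmb9* are read in opposite directions from RefSeq starts that lie 225 bases apart, so that their windows overlap. The stretch between the starts holds TGACG, shown in capitals on the strand of *Tap1*.
*Tap1* and *Psmb9*, chr17:34187457-34187486, plus strand: gcccagagacaggTGACGacagagggtcct

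TGACG was present in the windows of 5 of the 8 genes and in 20.8% of all windows, and CCAAT in 7 of the 8 and in 37.4%. In both counts *Tap1* and *Psmb9* enter as separate genes, although their matches are the same site in the overlapping windows. The letters of an interferon-γ activated site, TTCNNNGAA, were present in 1 of the 8, *Psmb8*, and in 8.30% of all windows. These are matches of letters only, and binding was not measured here. Upstream refers to the RefSeq starts. In GENCODE M21 the printed stretches of *H2-D1* and *H2-T23* lie within the bounds of those genes. The stretch between *Tap1* and *Psmb9* lies there within the bounds of *Psmb9*.

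The tissue was checked against marker lists first. Macrophage markers led by *Lyz2* and *Gpnmb* summed to between 9805 and 21699.9 CPM (CPM being the count relative to the scaled library total) in the vehicle animals and to between 26475 and 32523 in the HPβCD animals. Neuron markers summed to 5753 CPM in vehicle animal 3 and 914 in vehicle animal 1, against between 2.63 and 72.2 in the other 6 libraries. Astrocyte markers summed to between 2119.7 and 8956 CPM in the vehicle animals and to between 606 and 2431 in the HPβCD animals, and oligodendrocyte markers to between 1514 and 4865 and between 158 and 1926. In bulk tissue, fewer cells of a type and less RNA per cell cannot be told apart. The libraries held between 16.6 M and 32.9 M counts in genes.

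The levels of the 10 genes spanned a wide range. Per length, as TPM (counts divided by exon length and scaled to a common total) over all 8 libraries, *B2m* stood at 7444 ± 2403 (SD, n = 8), *H2-D1* at 1583 ± 736, *H2-K1* at 525 ± 234 and *Tapbp* at 297 ± 138. *H2-T23* followed at 57.3 ± 21.5 TPM, *Tap2* at 23.5 ± 10.2, *Tap1* at 19.8 ± 8.87, *Nlrc5* at 8.79 ± 2.77, *Psmb9* at 6.20 ± 2.27 and *Psmb8* at 5.65 ± 1.62. The neighbours *Tap2* and *Tap1* lay within 1 SD of each other, and so did *Psmb9* and *Psmb8*. *Nlrc5* lay above *Psmb8* by more than 1 SD of either gene.

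No gene of the 10 passed the test between HPβCD and vehicle. By the edgeR quasi-likelihood test, 0 of 10 reached an adjusted p under 0.05, where 1.95% of the 14736 genes tested did, and the adjusted p of the 10 ranged from 0.0670 to 0.974. Unadjusted p was under 0.05 for 3 of them (*Tapbp*, *H2-D1* and *Tap2*) and for 27.8% of all genes tested. The log2 fold change was above 0 for 8 of the 10 and for 45.9% of all genes tested, with a median of 0.37 against −0.05. Without HPβCD animal 3 it was above 0 for 6 of the 10, with a median of 0.16. DESeq2 called 2 of the 10, *H2-D1* and *Tapbp*, where it called 17.5% of the 16665 genes it tested. limma-voom called 4, those and *H2-T23* and *Tap2*, where it called 21.9% of the 14736. Without vehicle animals 1 and 3, the ones with the most neuron RNA, edgeR called 0 of the 10, 9 were above 0 and the median was 0.39 (0.01 for all genes tested). Without vehicle animal 3 and HPβCD animal 3 it also called 0, 6 were above 0 and the median was 0.06 (−0.01 for all genes tested).

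**Figure D1:**
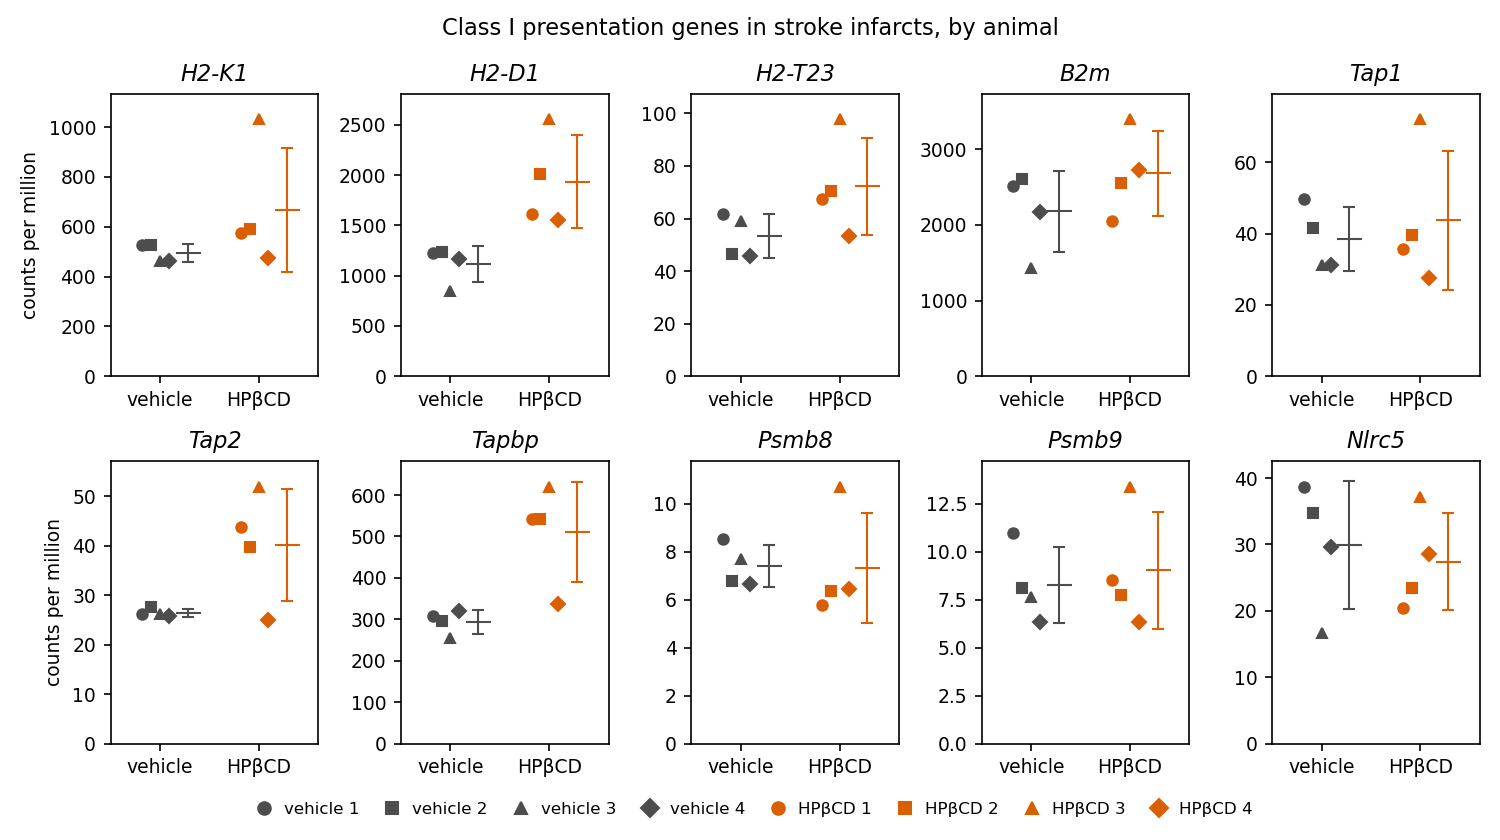
CPM of the 10 genes in each animal, 1 panel per gene with its own axis from 0. Symbols are single animals, and the horizontal dash and bar give the mean and SD of 4 animals. The groups are apart for *H2-D1* and *Tapbp*, and the triangle of HPβCD animal 3 is the highest of its group in every panel.

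Among the heavy chains, *H2-D1* (chr17:35262730-35267499, plus strand), a classical class I heavy chain, measured 1222, 1231, 851 and 1164 CPM in vehicle animals 1 to 4 and 1614, 2012, 2556 and 1558 CPM in HPβCD animals 1 to 4. Every HPβCD animal lay above every vehicle animal, and vehicle animal 3 was the lowest. The means were 1117 ± 179.7 CPM (SD, n = 4) and 1935 ± 461 CPM (SD, n = 4), a log2 fold change of 0.79 (SE 0.22, 95% interval 0.29 to 1.29) with an edgeR adjusted p of 0.0782. DESeq2 gave 0.81 with an adjusted p of 0.00706, so that the call depends on the tool. The edgeR log2 fold change was 0.63 without HPβCD animal 3 (edgeR adjusted p = 0.135) and 0.68 without vehicle animal 3 (edgeR adjusted p = 0.0837). Without both animals it was 0.52 (edgeR adjusted p = 0.115). Groups that do not overlap were found for 2 of the 10 genes, *H2-D1* and *Tapbp*, and for 16.8% of all genes tested.

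*H2-K1* (chr17:33996017-34000347, minus strand), the other classical heavy chain of this strain, measured 528, 526, 462 and 462 CPM in the vehicle animals and 575, 591, 1032 and 473 CPM in the HPβCD animals. The vehicle animals were close together, and the spread of the HPβCD group came mainly from animal 3. Its log2 fold change was 0.43 (SE 0.24, interval −0.12 to 0.99, edgeR adjusted p = 0.283), and 0.15 without HPβCD animal 3.

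*H2-T23* (chr17:36029773-36032855, minus strand) encodes Qa-1, a nonclassical heavy chain read by the inhibitory receptor CD94/NKG2A of natural killer cells. Its levels were 61.9, 46.4, 59.0 and 45.9 CPM in the vehicle animals and 67.4, 70.5, 97.8 and 53.2 CPM in the HPβCD animals. HPβCD animal 4 lay among the vehicle animals. This gave a log2 fold change of 0.44 (SE 0.20, interval −0.02 to 0.90, edgeR adjusted p = 0.198), 0.26 without HPβCD animal 3 and 0.66 without vehicle animals 1 and 3. Of all stretches of 75 bases in their transcripts, the read length, 3.1% for *H2-K1*, 5.4% for *H2-D1* and 5.9% for *H2-T23* also occurred in another gene, so that a small part of these counts is uncertain.

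*B2m*, the light chain that all class I heavy chains share, measured 2521, 2601, 1431 and 2169.5 CPM in the vehicle animals and 2051, 2548, 3398 and 2725 CPM in the HPβCD animals. The groups overlapped widely, with HPβCD animal 1 below 3 of the 4 vehicle animals. Its log2 fold change was 0.30 (SE 0.25, interval −0.26 to 0.86, edgeR adjusted p = 0.475), and was 0.17 when HPβCD animal 3 was left out, 0.14 when vehicle animal 3 was, and 0.01 when both were.

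The ratio of each heavy chain to *B2m* within a library does not depend on the scaling between libraries. The log2 ratio of *H2-D1* to *B2m* in CPM was −1.05, −1.08, −0.75 and −0.90 in the vehicle animals and −0.35, −0.34, −0.41 and −0.81 in the HPβCD animals. HPβCD animal 4 lay just below vehicle animal 3, and the other HPβCD animals lay above the whole vehicle group. The mean difference was 0.47 (exact two-sided permutation test, p = 0.0571, adjusted over 7 ratios p = 0.400), where the smallest p that 4 animals against 4 allow is 0.0286. The same ratio differed by 0.06 for *H2-K1* (exact p = 0.829) and by 0.10 for *H2-T23* (exact p = 0.743), with overlapping groups. Whether *H2-D1* differed more than *H2-K1* was not tested.

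*Tap1* and *Tap2* encode the partner subunits of the peptide transporter. *Tap2* (chr17:34203527-34216321, plus strand) measured 26.2, 27.6, 26.1 and 25.8 CPM in the vehicle animals and 43.7, 39.8, 51.9 and 25.0 CPM in the HPβCD animals. The vehicle animals were nearly level, 3 HPβCD animals lay above all of them, and HPβCD animal 4 lay below. For *Tap2* the log2 fold change was 0.60 (SE 0.21, interval 0.13 to 1.08, edgeR adjusted p = 0.111), 0.46 without HPβCD animal 3 (edgeR adjusted p = 0.223) and 0.78 without HPβCD animal 4 (edgeR adjusted p = 0.0382).

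*Tap1* (chr17:34187553-34197225, plus strand) measured 49.7, 41.5, 31.1 and 31.3 CPM in the vehicle animals and 35.7, 39.5, 72.1 and 27.5 CPM in the HPβCD animals. Apart from HPβCD animal 3, the HPβCD animals did not exceed the vehicle range. For *Tap1* the log2 fold change was 0.19 (SE 0.30, interval −0.50 to 0.87, edgeR adjusted p = 0.736) and was −0.16 without that animal. The log2 ratio of *Tap1* to *Tap2* was 0.92, 0.59, 0.25 and 0.28 in the vehicle animals and −0.29, −0.01, 0.47 and 0.14 in the HPβCD animals. The groups overlapped through HPβCD animal 3, and the mean difference was −0.43 (exact permutation test, p = 0.114, adjusted p = 0.400). Of the exon length of *Tap2*, 18.5% is shared with genes on the other strand, and the strand option of the counting is not given in the sources used here.

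*Tapbp* (chr17:33915899-33929292, plus strand) encodes tapasin, the chaperone that holds class I molecules at the transporter. It measured 307, 297, 254 and 319 CPM in the vehicle animals and 542, 542, 620.1 and 338 CPM in the HPβCD animals. Every HPβCD animal lay above every vehicle animal, with HPβCD animal 4 close to the vehicle range. The log2 fold change was 0.80 (SE 0.20, interval 0.34 to 1.25) with an edgeR adjusted p of 0.0670, the lowest of the 10 genes, and DESeq2 gave 0.81 with an adjusted p of 0.00460. Without HPβCD animal 3 the edgeR value was 0.69 (adjusted p = 0.121), and without HPβCD animal 4 it was 0.96 (adjusted p = 0.0348). Of its exon length 24.9% is shared with a gene on the other strand and 4.1% with *Zbtb22* on the same strand.

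*Psmb8* and *Psmb9* encode immunoproteasome subunits, which take the places of *Psmb5* and *Psmb6* in the proteasome and favour peptides that fit class I. *Psmb8* (chr17:34197721-34201454, plus strand) measured 8.52, 6.79, 7.67 and 6.65 CPM in the vehicle animals and 5.79, 6.36, 10.7 and 6.43 CPM in the HPβCD animals. HPβCD animal 3 was the highest of all 8 and the other 3 HPβCD animals were the lowest. The log2 fold change was −0.02 (SE 0.23, interval −0.54 to 0.51, edgeR adjusted p = 0.974), with a sign that turned under several alternatives, and 14.7% of its exon length is shared with a gene on the other strand. *Psmb9* (chr17:34181987-34187764, minus strand) measured 11.0, 8.10, 7.67 and 6.33 CPM in the vehicle animals and 8.54, 7.76, 13.4 and 6.37 CPM in the HPβCD animals. Its groups overlapped, with a log2 fold change of 0.13 (SE 0.27, interval −0.49 to 0.74, edgeR adjusted p = 0.805) and of −0.13 without HPβCD animal 3.

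Set against the subunits they replace, no immunoproteasome subunit differed between the groups by more than the spread between animals. The log2 ratio of *Psmb8* to *Psmb5* averaged −1.05 ± 0.40 (SD, n = 4) in the vehicle animals and −1.17 ± 0.41 (SD, n = 4) in the HPβCD animals, a difference of −0.12 (exact permutation p = 0.714). For *Psmb9* to *Psmb6* the difference was −0.04 (exact permutation p = 0.857), and for *Psmb10* to *Psmb7*, the third such pair, it was −0.11 (exact permutation p = 0.629). The range of these ratios within a group was wider than any of the differences.

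**Figure D2:**
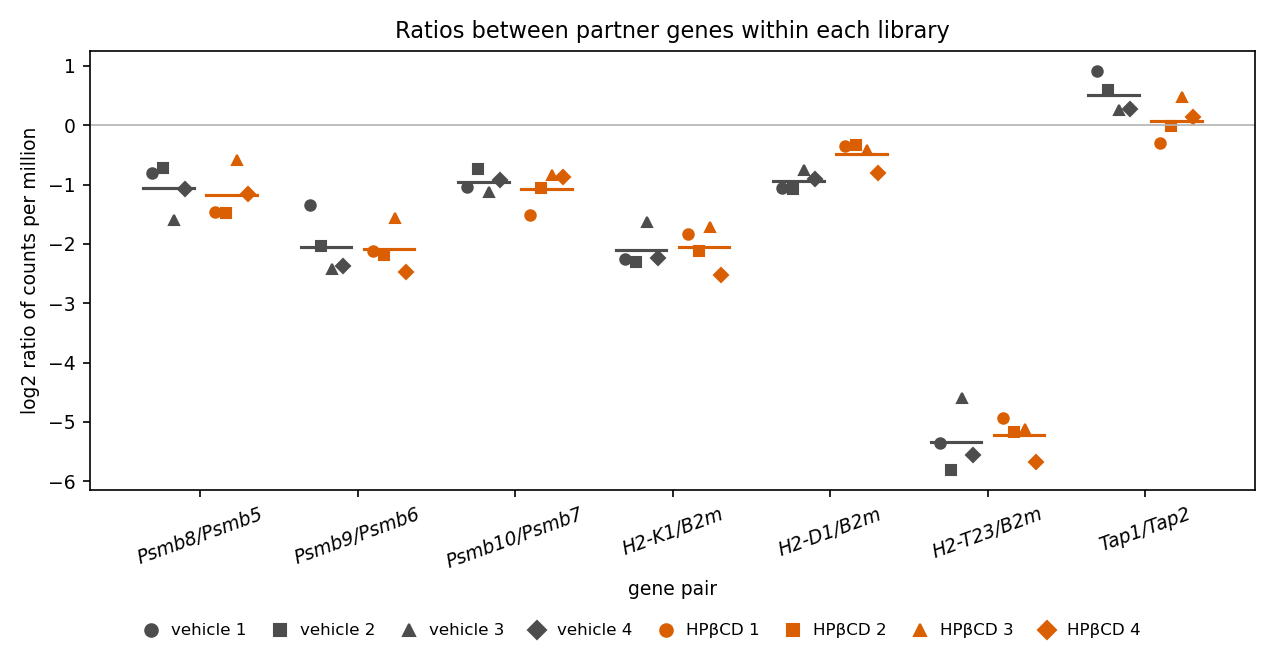
Log2 ratio of CPM between partner genes within each library, for 7 pairs. Symbols are single animals and horizontal lines are the means of 4. The groups overlap for every pair, and the largest differences of means are 0.47 for *H2-D1* to *B2m* and −0.43 for *Tap1* to *Tap2*.

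*Nlrc5*, a coactivator of class I genes, measured 38.7, 34.8, 16.7 and 29.6 CPM in the vehicle animals and 20.5, 23.4, 37.2 and 28.5 CPM in the HPβCD animals. It was the only one of the 10 whose highest value was in a vehicle animal. The log2 fold change was −0.13 (SE 0.28, interval −0.77 to 0.52, edgeR adjusted p = 0.809), −0.31 without HPβCD animal 3 and −0.51 without that animal and vehicle animal 3 (edgeR adjusted p = 0.121).

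**Figure D3:**
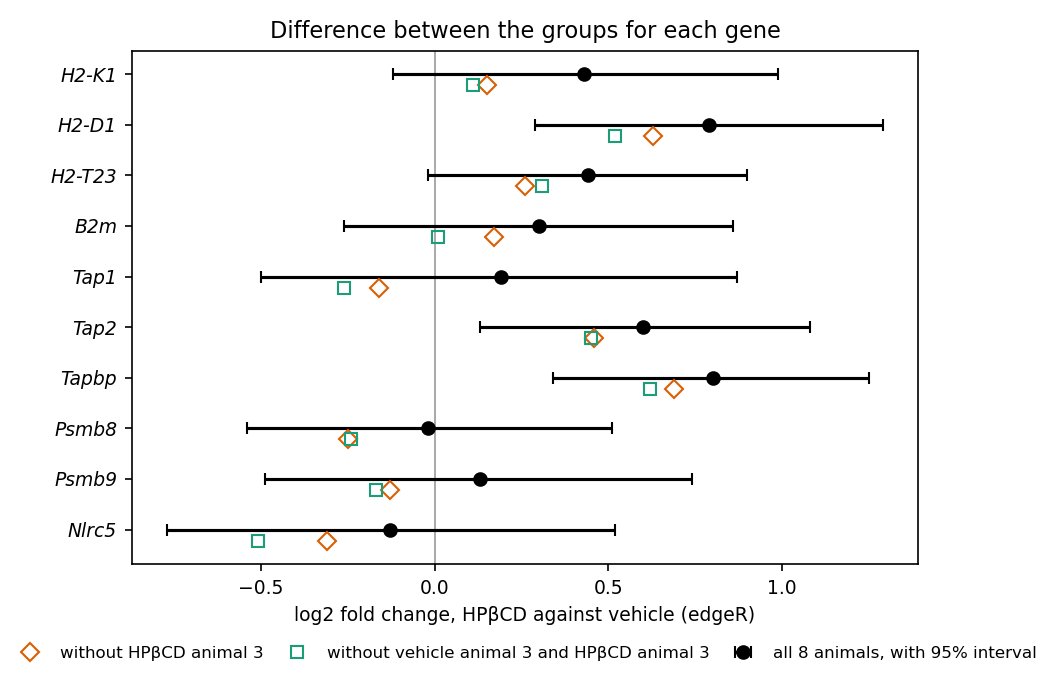
Log2 fold change of each gene, HPβCD against vehicle, from edgeR. Filled points use all 8 animals with 95% intervals, diamonds leave out HPβCD animal 3, and squares leave out that animal and vehicle animal 3. The intervals of *H2-D1*, *Tap2* and *Tapbp* lie above 0 before adjustment, and *Tap1* and *Psmb9* move from above to below 0 when HPβCD animal 3 is left out.

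The libraries in which the 10 genes were highest and lowest were then counted. HPβCD animal 3 was the highest of its group for 10 of the 10 genes and of all 8 animals for 9, against 31.6% and 12.3% of all genes tested. Vehicle animal 3 was the lowest of its group for 6 of the 10, against 39.2% of all genes tested, and HPβCD animal 4 for 7 of the 10, against 32.0%. The mean of the 10 genes, each as log2 CPM minus its own mean, was 0.06, −0.09, −0.38 and −0.24 in vehicle animals 1 to 4 and 0.02, 0.12, 0.68 and −0.17 in HPβCD animals 1 to 4. On that average, HPβCD animals 1 and 4 lay within the vehicle range, HPβCD animal 2 lay just above it and HPβCD animal 3 stood apart from the other 7. Single genes departed from it in both directions, since in vehicle animal 1 *Nlrc5* and *Psmb9* lay above their own means and *H2-D1* and *Tapbp* below theirs.

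**Figure D4:**
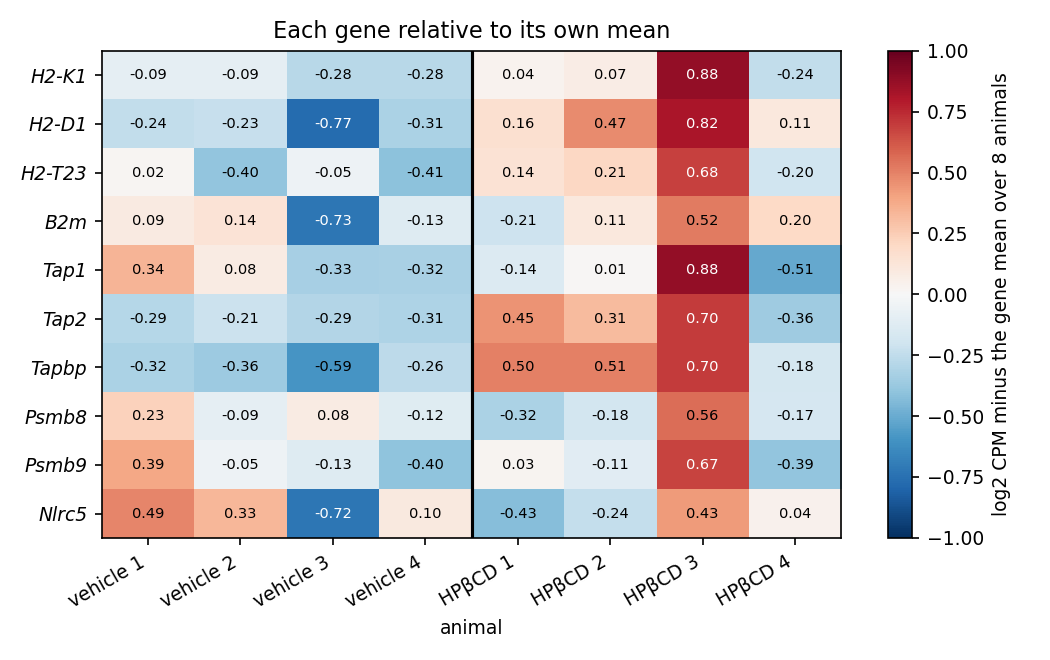
Log2 CPM of each gene minus its mean over the 8 animals, with the value printed in each cell. Red is above and blue below the gene's mean, and the black line separates vehicle from HPβCD. HPβCD animal 3 is red for all 10 genes, and vehicle animal 3 is the lowest of all 8 for 5 of them.

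Some genes of T lymphocytes, whose CD8 cells read class I, were also high in HPβCD animal 3. It was the highest of all 8 animals for 6 of the 8 T lymphocyte markers (all but *Cd3g* and *Trbc2*), against 12.3% of all genes tested. The same held for 9 of the 16 matched genes of class I receptors and of CD8 T and natural killer cells. That list shares *Cd8a*, *Cd3e*, *Cd3d* and *Trac* with the T lymphocyte markers, so the counts are not separate. Its genes *Klrd1*, *Klrc1*, *Klrk1*, *Klrb1c*, *Ncr1*, *Pirb* and *Cd160*, named after their values were seen, were each highest in another animal. High values in HPβCD animal 3 were not particular to T lymphocytes. HPβCD animal 3 was also the highest for 4 of 7 macrophage, 4 of 7 dendritic cell, 2 of 6 microglia and 2 of 6 fibroblast markers. Of the regulators and interferon signalling genes it was the highest for 13 of 25, and of the neuron, astrocyte, oligodendrocyte, B lymphocyte, plasma cell and endothelium markers for 0. It was the lowest of all 8 for *Ncr1*, a natural killer cell receptor. *Cd8a*, named after its values were seen, measured 33.7 CPM there and between 12.6 and 20.5 CPM in the other 7 animals, and *Trac*, the constant part of the T cell receptor α chain, measured 40.3 CPM against between 11.0 and 21.4. The 8 T lymphocyte markers summed to 244 CPM in that animal and to between 98.7 and 172 in the others. *Irf1*, an interferon-induced factor that binds class I promoters, measured 84.2 CPM there and between 32.4 and 50.7 in the others. *Ifng*, which was too low for the edgeR test, measured 1.12 CPM there against between 0.0537 and 0.344 (DESeq2 adjusted p = 0.132 between the groups). Both genes were also named after their values were seen. *Cd8a* (log2 fold change 0.51, edgeR adjusted p = 0.279), *Trac* (0.29, 0.659) and *Irf1* (0.45, 0.307) did not pass the test between the groups. The part of these cells in the class I values was not tested.

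The sums of macrophage and of fibroblast markers did not overlap between the groups, as for *H2-D1* and *Tapbp*, and were higher in the HPβCD animals. Those of B lymphocyte and of plasma cell markers did not overlap either, and were lower in the HPβCD animals. The macrophage sums consisted mostly of *Lyz2* and *Gpnmb*. Of the macrophage markers, 1 of the 7 markers was called, *Gpnmb*, with a log2 fold change of 1.38 (edgeR adjusted p = 0.0483). The groups did not overlap for 3 of the 7, against 16.8% of all genes tested. These were *Gpnmb*, *Lyz2* (log2 fold change 0.93) and *Cd68* (0.88). The groups overlapped for *Adgre1* (0.43), *Msr1* (0.08), *Mrc1* (−0.01) and *Itgam* (−0.13). Macrophage markers other than *Lyz2* and *Gpnmb* are named after their values were seen. The fibroblast sums lay between 2343 and 6012 CPM in the vehicle animals and between 8638 and 9250.2 CPM in the HPβCD animals, and *Col1a1* (log2 fold change 1.61, adjusted p = 0.0483) and *Col1a2* (1.46, 0.0462) of the 6 markers were called by edgeR. Endothelium markers summed to between 429 and 504 and between 469 and 803 CPM, microglia markers to between 843 and 1466 and between 1046 and 1730.1 CPM, and dendritic cell markers to between 155 and 326 and between 267 and 374 CPM. B lymphocyte markers summed to between 146 and 521 CPM and between 45.3 and 131 CPM, with 4 of 7 called lower, and plasma cell markers to between 1207 and 2665 and between 343 and 578 CPM, with 1 of 6 called lower. None of the markers in these lists was at 0 in every library. Their part in the class I values was not tested.

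The rest of the pathway was read from 5 further lists, and edgeR called 0 of the 80 genes it tested there, against 1.95% of all genes it tested. For the counts per list below, 45.9% of all genes tested were above 0 and 27.8% had an unadjusted p under 0.05. DESeq2 called 4 of 84, against 17.5% of all genes it tested, and limma-voom 7 of 80, against 21.9%. Of 19 other class I and class I-like heavy chains, 12 were tested; 5 were above and 7 below 0, with a median log2 fold change of −0.07 and an unadjusted p under 0.05 for 2. The most abundant were *Hfe*, which controls iron uptake, with 60.0 ± 11.3 CPM in the vehicle animals and 83.7 ± 12.4 CPM in the HPβCD animals (SD, n = 4 each), *Mr1*, which presents vitamin B metabolites, with 54.2 ± 16.3 and 78.8 ± 8.18 CPM, and *H2-T22* with 61.7 ± 4.80 and 69.6 ± 8.76 CPM. The edgeR adjusted p was 0.127 for *Hfe*, 0.150 for *Mr1* and 0.431 for *H2-T22*. *H2-M10.1*, named after its values were seen, was too low for the edgeR test, at between 0.0604 and 0.621 CPM in the vehicle animals and at 0 in all 4 HPβCD animals (DESeq2 adjusted p = 0.00545).

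Of 15 other genes of peptide supply and loading, 14 were tested, with 11 above and 3 below 0, a median of 0.08 and an unadjusted p under 0.05 for 2. The chaperone *Calr*, calreticulin, which sits with tapasin in the loading complex, measured 450.5, 516, 496 and 468 CPM in the vehicle animals and 743, 739, 790.2 and 522 CPM in the HPβCD animals. The groups did not overlap, and HPβCD animal 4 again lay next to the vehicle animals (log2 fold change 0.53, SE 0.17, edgeR adjusted p = 0.0926; DESeq2 adjusted p = 0.0172). *Canx*, calnexin, which folds new heavy chains, and *Hspa5*, a general chaperone, had log2 fold changes of 0.36 (edgeR adjusted p = 0.192) and 0.24 (0.389). *Psmb10*, the third immunoproteasome subunit, measured 27.0 ± 3.16 CPM and 27.6 ± 6.10 CPM (SD, n = 4 each).

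The 14 constitutive proteasome subunits were all tested, with 11 above and 3 below 0, a median of 0.11 and an unadjusted p under 0.05 for 0. Their log2 fold changes ran from −0.17 to 0.40, and the most abundant, *Psma1*, *Psma3* and *Psmb3*, had 0.16, 0.15 and 0.13. Of 25 regulators and interferon signalling genes, 24 were tested, with 17 above and 7 below 0, a median of 0.11 and an unadjusted p under 0.05 for 3. The kinases *Jak1* and *Jak2* and the interferon-γ receptor chain *Ifngr1* had log2 fold changes of 0.12, −0.19 and 0.10, with edgeR adjusted p of 0.644, 0.620 and 0.801. The groups did not overlap for 2 of the 24, against 16.8% of all genes tested, and both are named after their values were seen. *Nfyb*, a subunit of the factor that binds CCAAT boxes, was lower, at 35.3, 28.0, 51.0 and 27.9 CPM in the vehicle and 24.1, 20.1, 18.6 and 21.1 CPM in the HPβCD animals (log2 fold change −0.76, edgeR adjusted p = 0.0801; DESeq2 adjusted p = 0.0227). *Socs1*, an inhibitor of interferon signalling, was low in every library, at 0.697 ± 0.192 CPM and 1.27 ± 0.277 CPM (SD, n = 4 each; edgeR adjusted p = 0.120).

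Of 18 genes for class I receptors and for CD8 T and natural killer cells, 16 were matched and tested, with 8 above and 8 below 0, a median of −0.02 and an unadjusted p under 0.05 for 2. *Pirb*, an inhibitory receptor that binds class I on myeloid cells and neurons, measured 70.7, 94.5, 64.6 and 81.9 CPM in the vehicle animals and 129, 117, 128 and 94.6 CPM in the HPβCD animals. The groups did not overlap, but vehicle animal 2 and HPβCD animal 4 were almost level (log2 fold change 0.59, SE 0.16, edgeR adjusted p = 0.0785; DESeq2 adjusted p = 0.0216). *Cd3e*, a chain of the T cell receptor complex, measured 19.6 ± 4.36 and 21.4 ± 11.1 CPM (SD, n = 4 each; edgeR adjusted p = 0.839).

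**Figure D5:**
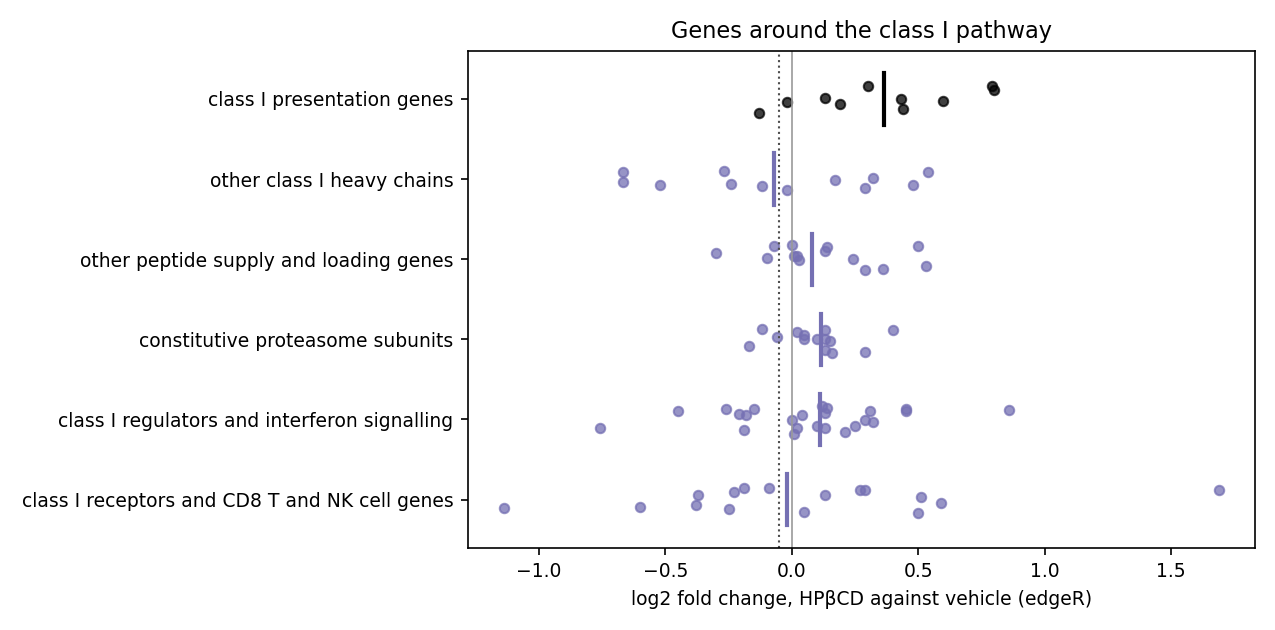
Log2 fold change, HPβCD against vehicle, of every tested gene in 6 lists, 1 point per gene, spread vertically for legibility. Thick bars are list medians and the dotted line is the median of all genes tested, −0.05. The median of the 10 presentation genes is 0.37 and those of the other lists run from −0.07 to 0.11.

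Over all 14726 other tested genes, those whose centred log2 CPM lay closest to the average of the 10 were *Tlr12*, *Rps6ka1*, *Rasal3*, *Mtmr14* and *Arrb2*, with root mean square distances of 0.090, 0.091, 0.108, 0.110 and 0.122 over 8 libraries. Of the 10 themselves, *H2-K1* was the closest at 0.100 and *Nlrc5* the farthest at 0.359. Although each of the 10 is part of that average, many other genes lay closer to it than most of them did. There were 2 such genes for *H2-K1*, 711 for *H2-D1*, 1378 for *Tapbp* and 3812 for *Nlrc5*. None of the 5 was called by edgeR, with log2 fold changes between 0.27 and 0.38 and adjusted p between 0.206 and 0.360.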

How the data were processed

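Total RNA of infarcts was made into stranded poly(A) libraries by the authors, who trimmed reads with Trimmomatic 0.32, aligned them to GRCm38 with STAR 2.5.2b and counted them per gene with htseq-count. The counts the authors deposited are raw, with 1 table per animal. The strand option and annotation release are not given in the sources used here. The 5 summary lines of each table (26.6% to 36.6% of its total, mostly alignments to several places, 18.6% to 23.6%) were left out, so that near-identical genes are undercounted. Symbols were matched for 45143 of 46078 identifiers; *Nrdc*, *Lilrb4a* and *Lilr4b* were not matched.

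The 14736 genes kept by filterByExpr were tested with edgeR 4.0.16 in R 4.3.3 (TMM scaling, robust quasi-likelihood test, no covariate, Benjamini-Hochberg adjustment over all of them, threshold 0.05). CPM uses library totals times TMM factors; log2 CPM adds a prior count of 2; TPM was computed from exon lengths in GENCODE M21. DESeq2 1.42.0, which the study used, and limma 3.58.1 (voom with sample weights) served as alternatives, beside other scalings, no filter, a replicate block and leaving out animals. Ratios were tested by exact permutation over 70 assignments. The 8 libraries differed from each other by more than counting noise. The labels give no batch.

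The 10 genes and all lists were chosen with earlier results of these data known. Named were all 10, the 3 most abundant genes and any called genes (at most 4) of every pathway list, ratio partners, the 5 genes closest to the average profile, and the 2 most abundant markers of cell type lists set beside a result; others are said to be chosen after their values were seen.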

Additional observations from a re-analysis of the deposited data

Results flagged for a closer look

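In 34 groups of 4 animals (10 levels and 7 ratios, each in both treatments), 4 single values lay far from the other 3, by Dixon's test at the 95% level; chance gives about 1 in 20 groups, or 1.7 of 34. The log2 CPM of *H2-D1* was 9.73 in vehicle animal 3, against 10.19 to 10.27 in the other vehicle animals. The log2 CPM of *Psmb8* was 3.43 in HPβCD animal 3, against 2.56 to 2.71 in the other HPβCD animals. The log2 ratio of *H2-K1* to *B2m* was −1.63 in vehicle animal 3, against −2.30 to −2.23 in the other vehicle animals. The log2 ratio of *H2-D1* to *B2m* was −0.81 in HPβCD animal 4, against −0.41 to −0.34 in the other HPβCD animals.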

How the results depend on the processing

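Of the 10 genes, 0 were called by edgeR under the planned settings other than the ones named here. DESeq2 called 2 (*H2-D1* and *Tapbp*), limma-voom 4 (those, *H2-T23* and *Tap2*), and the counts with 1 animal left out ran from 0 to 2, the 2 being *Tap2* and *Tapbp* without HPβCD animal 4. The further pathway lists held 0 calls in edgeR under every setting, 4 by DESeq2 (*Calr*, *Nfyb*, *Pirb* and *H2-M10.1*, which edgeR's filter removed) and 7 by limma-voom. The sign of the log2 fold change turned for *Tap1* (−0.16 to 0.36 with 1 animal left out, the lowest without HPβCD animal 3) and *Psmb9* (−0.13 to 0.30, likewise), which were −0.26 and −0.17 without vehicle animal 3 and HPβCD animal 3 together, a setting chosen after seeing the data. It turned for *Nlrc5* (−0.32 to 0.03 with 1 animal left out, the highest without vehicle animal 1) and for *Psmb8* (−0.25 to 0.09 with 1 animal left out, 0.01 with DESeq2, 0.02 without the filter and 0.14 without vehicle animals 1 and 3). With 1 animal left out, the mean difference in log2 ratio also took both signs for *Psmb9* to *Psmb6* (−0.22 to 0.19; 0.12 without vehicle animals 1 and 3), *Psmb10* to *Psmb7* (−0.20 to 0.03), *H2-K1* to *B2m* (−0.05 to 0.22) and *H2-T23* to *B2m* (−0.06 to 0.35), and the exact test cannot then go below 0.0571. The causes were not tested. The labels link same-numbered animals by the number alone, and whether they shared anything else is not known. Their deviations correlated at −0.257, 0.244, 0.329 and 0.0975, and 2 of 4 correlated best with their own number. With the replicate number as a block, 0 of the 10 genes and 0 pathway genes were called, and 9 of all genes instead of 287. Calls over all genes also moved with the tool and library: 11 with library totals alone, 3232 by limma-voom, and from 0 to 629 with 1 animal left out (0 without vehicle animal 1 or 4 or HPβCD animal 2 or 3, 4 without HPβCD animal 1).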
